A study of Mus musculus with 6 samples.

Results

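The serpins are a superfamily of proteins built on the fold of antitrypsin, and the liver is the source of most of those found in plasma. Probes were taken as serpin probes when the RefSeq accession in the scanner files belongs to a mouse gene whose symbol is Serpin followed by a clade letter from a to i and a number. This gave 58 genes of 19752 with a named probe, read by 71 of the 55681 probes on the array, and every probe was kept apart because the genes of a clade can be very alike in sequence. The RefSeq gene list holds 69 such symbols, and the other 11, among them Serpina1b and Serpina3g, had no probe with a matching accession and were not analysed here. Probe sequences were not used here, and signal shared between paralogs was not measured.

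Liver RNA was compared between Fra-1hep mice, in which hepatocytes overexpress the AP-1 subunit Fra-1 (gene Fosl1), and wild-type mice. All animals were untreated C57BL/6J mice aged 26 to 28 weeks, and the 5 wild-type mice, which were fed chow, were present only as a pool. Each of 5 arrays set 1 Fra-1hep mouse, in Cy5, against that pool, in Cy3. A further array was dye-swapped and carried pooled Fra-1hep RNA in Cy3 against the same wild-type pool in Cy5. The series text speaks of 6 single mutant mice where the sample labels give 5 mice and the pools, and the labels were followed. Which mice made up the Fra-1hep pool, and which promoter drives the transgene, are not given in the sources used here.

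A serpin that inhibits a protease offers it an exposed loop as bait. When the protease cuts the loop, the serpin folds the cut strand into its own body and drags the enzyme along, so that both are lost. Clade A holds the antitrypsins, the antichymotrypsins and hormone carriers, clade B the intracellular serpins of epithelial and blood cells, clades C, D and G regulators of coagulation and complement, clade F an inhibitor of fibrinolysis and a serpin without a protease target, and clade E inhibitors of extracellular proteases. Some members inhibit nothing and instead carry steroid or thyroid hormone, or fold collagen.

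Ratios are given below as log2 of Fra-1hep over wild type on each array, with the sign of the dye-swapped array reversed to match. The arrays of mice 2 and 3 differed by 1.20 times the spread of replicate spots of a probe, against 1.81 to 2.28 times for the 9 other pairs of mice, and were averaged, so that n = 4 Fra-1hep samples stand behind each SE. The genotype estimate is the mean of the average mouse ratio and the dye-swapped ratio, tested in limma over all 30105 probes tested with Benjamini-Hochberg adjustment, and a probe rose or fell where its adjusted p was under 0.05. The wild-type pool is a single sample, so no spread between control mice enters any test. Between 45.0 and 58.9% of probes per array and channel were well above background, and 0 spots were saturated. The probe for Fosl1 never rose clear of background (0 arrays, either dye), its log2 ratios ran from -0.18 to 0.074, and it does not check the labels. Of 7 hepatocyte markers with a probe, all were well above background on all 6 arrays in both channels; 1 rose (Pck1), 2 fell (Alb, Apoa1) and 4 did not pass. Summed over these markers, Fra-1hep signal was 334000 to 532600 per array and wild-type signal 301400 to 501200. Here and below such sums were not scaled between arrays, so their ranges also hold differences in brightness between arrays. The wild-type range is that of 1 pool read on 6 arrays and not a spread between mice. In whole liver, fewer cells of a type and less RNA per cell cannot be told apart.

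Serpin transcripts were lower in Fra-1hep liver far more often than higher. Of the 71 probes, 44 probes of 36 genes were bright enough to be tested. Of these 44, 15 probes fell (34.1%), 1 rose and 28 did not pass, where 6.05% of all tested probes fell and 5.52% rose. The 15 probes belong to 11 genes: Serpina1e, Serpina3f, Serpina3n, Serpina4-ps1, Serpina6, Serpina9, Serpina10, Serpina11, Serpina12, Serpinf1 and Serping1. The riser was Serpina3c. The median genotype ratio of the tested serpin probes was -0.17, against 0.0074 over all tested probes. The size of this serpin median depended on the setting: it was -0.0067 with median centring (0.076 over all probes), -0.022 with 1 probe per gene, -0.044 without a filter, -0.064 on mouse arrays only and -0.10 without a dye term. The sign was the same on all 6 arrays for 19 of the 44 probes (18 lower, 1 higher), or 43.2%, where 25.5% of all tested probes had 1 sign throughout. A drop of 0.9 or more was seen on 6 serpin probes that fell, while 0.628% of all tested probes fell by that much. The cut of 0.9 was not set in advance, and a drop of 1 or more was seen on 3 of these serpin probes. The share of all probes at a cut of 1 was not counted. With median centring in place of loess, 4 serpin probes rose and 11 fell, and 74.3% of all probes called were higher instead of 47.75%.

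**Figure D1:**
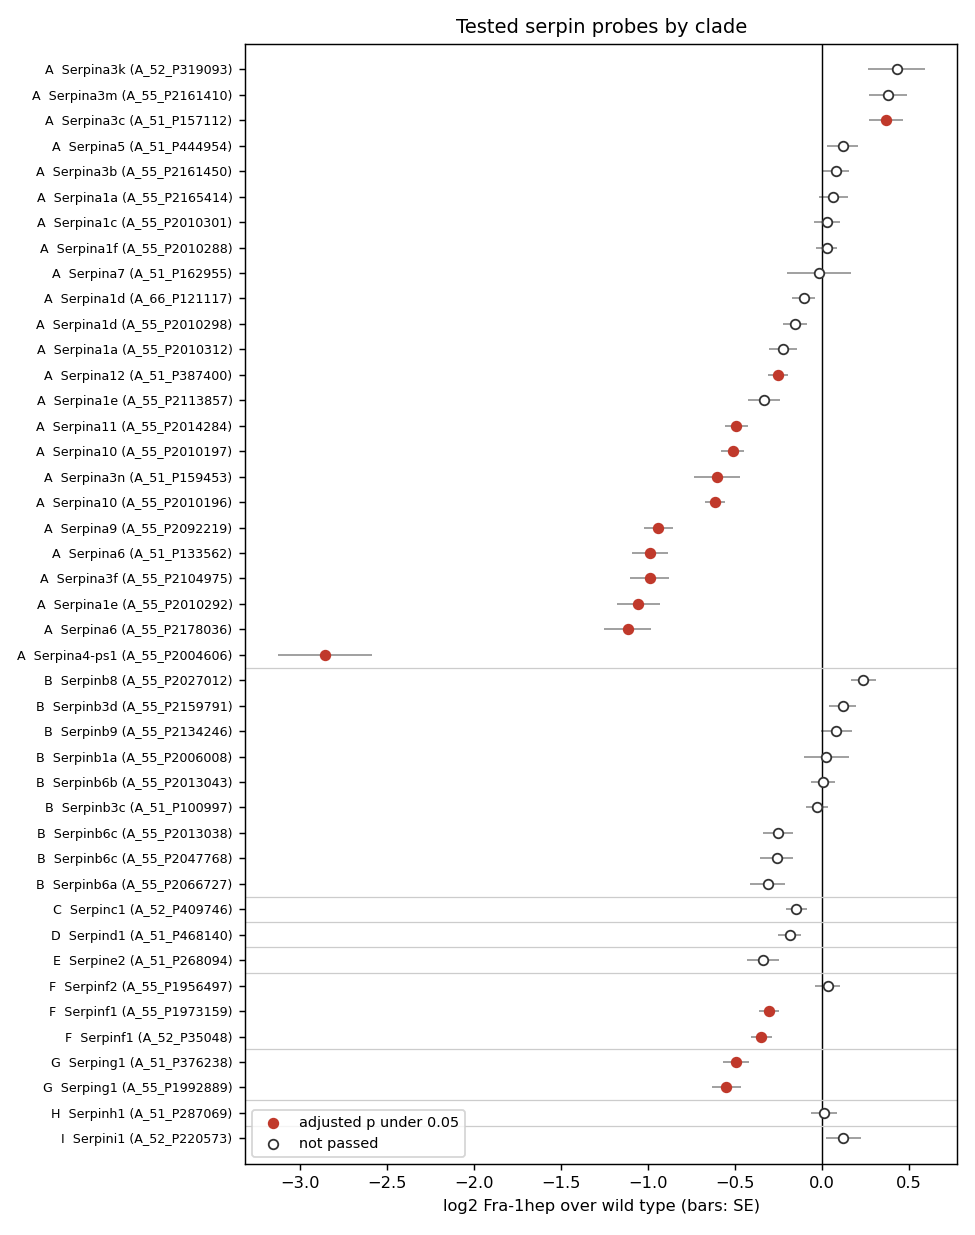
Genotype estimate of 43 of the 44 tested serpin probes (x axis, log2 Fra-1hep over wild type, bars 1 SE), grouped by clade letter, with filled points at an adjusted p under 0.05. All but 4 of the 16 filled points lie in clade A, and Serpina4-ps1 at -2.86 lies apart from the others.

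The fall was held largely in clade A, with 11 of 24 tested probes lower and 1 higher, and in Serpinf1 and Serping1, whose 4 probes all fell. It was uneven within clade A: 8 of 10 probes fell outside the Serpina1 and Serpina3 groups, 1 of 8 in the Serpina1 group and 2 of 6 in the Serpina3 group. Of the 9 tested probes of clade B, 0 passed in either direction. The single probes of clades C, D, H and I did not pass, nor did either probe of clade E.

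The largest of the 44 estimates was that of Serpina4-ps1 (NR_002861), a transcribed pseudogene of the clade A cluster and a relative of the kallikrein inhibitor kallistatin. Its ratios were -3.22, -3.33, -3.49, -1.66 and -2.70 in mice 1 to 5 and -2.97 on the dye-swapped array. Mouse 4 kept the most of this RNA, and every array lay far below 0. The transcript fell 7.26-fold (log2 -2.86, SE 0.27, adjusted p = 0.000659).

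Serpina6 encodes corticosteroid-binding globulin, the carrier that holds most glucocorticoid in plasma. Its brighter probe read -1.14, -1.21, -1.24, -1.28 and -0.71 in mice 1 to 5 and -0.89 in the dye-swapped pools, a fall to 1.98-fold lower (log2 -0.99, SE 0.10, adjusted p = 0.00101). The other probe read -1.44, -1.38, -1.40, -1.43 and -0.71, and -0.996 in the pools (estimate -1.12, SE 0.13, adjusted p = 0.00172). Mouse 5 had the smallest drop on both probes, and no array reached 0. The carrier of thyroid hormone behaved differently. Serpina7, which encodes thyroxine-binding globulin, read -0.74, -0.57 and -0.28 in mice 1, 4 and 5 but 0.38 and 0.48 in mice 2 and 3 and 0.26 in the pools. The mice thus lay on either side of 0, and the estimate of -0.016 did not pass (SE 0.18, adjusted p = 0.971).

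Serping1 encodes C1 inhibitor, which restrains the first complement proteases, plasma kallikrein and factor XII. The brighter probe read -0.36, -0.56, -0.66, -0.81 and -0.66 in mice 1 to 5 and -0.49 in the pools, and the other -0.47, -0.74, -0.61, -0.82, -0.58 and -0.35. All 12 readings were negative, and both probes fell by near-equal amounts (estimates -0.55, SE 0.08, and -0.50, SE 0.08, adjusted p = 0.00514 and 0.00516). With the scanner's processed signals the first of them just missed the threshold (-0.53, adjusted p = 0.0576). Endothelial markers were also lower, with 5 of 7 falling and 0 rising and summed signals of 10190 to 16650 in Fra-1hep and 18770 to 22610 in wild type. Their part in the ratios of Serping1, Serpinf1 and Serpine2 was not tested.

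Serpina10, the protein Z-dependent inhibitor of factor Xa, also fell on both of its probes. The brighter read -0.44, -0.48, -0.56, -0.63, -0.43 and -0.53 (estimate -0.51, SE 0.06, adjusted p = 0.00212), and the other -0.74, -0.77, -0.75, -0.88, -0.80 and -0.44 (estimate -0.62, SE 0.06, adjusted p = 0.000732). The mice were close to each other on either probe. Serpina11, a little-studied clade A gene, read -0.46, -0.56, -0.50, -0.70, -0.53 and -0.43 and fell (estimate -0.49, SE 0.07, adjusted p = 0.00276).

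Serpinf1 encodes pigment epithelium-derived factor, a secreted serpin that inhibits no protease and acts on vessels and lipid turnover. Its brighter probe read -0.16, -0.26, -0.27, -0.26, -0.15 and -0.40, and the other -0.48, -0.54, -0.62, -0.60, -0.45 and -0.17. Both fell by small amounts (estimates -0.31, adjusted p = 0.0153, and -0.35, adjusted p = 0.0096; SE 0.06 each). Neither passed with median centring (-0.14, adjusted p = 0.214, and -0.19, adjusted p = 0.0968) or with processed signals (-0.30, adjusted p = 0.0926, and -0.31, adjusted p = 0.0681).

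Among further members of clade A, Serpina9, known as centerin and described in germinal-centre B cells, read -0.9955, -0.70, -0.57, -1.01 and -0.98 in mice 1 to 5 and -0.98 in the pools. It fell 1.92-fold (log2 -0.94, SE 0.08, adjusted p = 0.000458). The size depended on the setting, with an estimate of -1.24 with offset 10 and -1.53 with processed signals. Of 4 B cell markers with a probe, 3 were tested and 2 fell (Cd79b -0.72, Ms4a1 -0.41), while 1 did not pass. Cd79a was not tested and was above background on just 1 array for Fra-1hep and 0 for wild type. Summed B cell marker signal was 477 to 581 for Fra-1hep against 686 to 825 for wild type, and their part in the Serpina9 result was not tested.

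Serpina12, which encodes the adipokine vaspin, read between -0.19 and -0.35 on all 6 arrays (estimate -0.25, SE 0.06, adjusted p = 0.0270). With processed signals the estimate was -0.65 and did not pass (adjusted p = 0.124). It also did not pass with median centring (adjusted p = 0.0576) or without mouse 4 (adjusted p = 0.0505) or without mice 2 and 3 (adjusted p = 0.0613). Of 5 adipose markers, Plin1 and Lep were above background on no array, and Adipoq and Retn on 1 array in wild type. Cfd, the only 1 tested, fell and was above background on all 6 arrays in wild type and 0 in Fra-1hep. Summed signals were 316 to 359 in Fra-1hep and 834 to 1105 in wild type, where Cfd alone stood clear of background throughout. Cfd is also counted below among the complement proteases. The part of adipose cells in the Serpina12 result was not tested. Serpina5, which encodes protein C inhibitor, was above background in the Fra-1hep channel of 3 mice and in wild type on 0 arrays, and its estimate of 0.12 did not pass (adjusted p = 0.461).

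**Figure D2:**
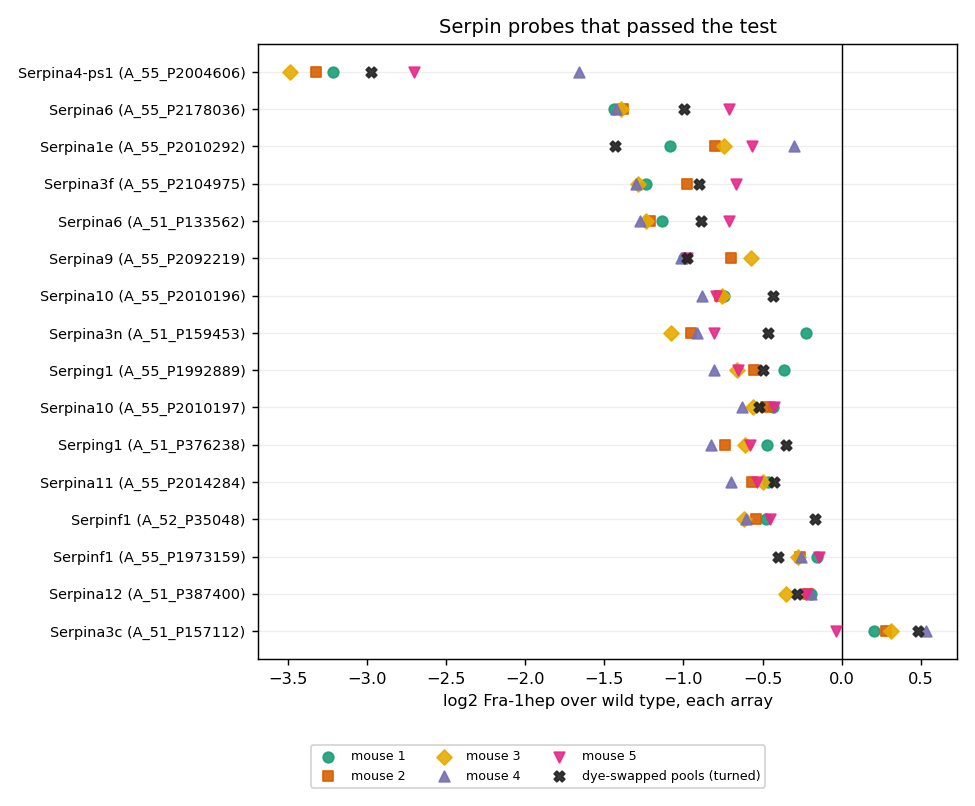
Log2 ratio of Fra-1hep over wild type on each of the 6 arrays (x axis) for the 16 serpin probes that passed the test, sorted by estimate, with a symbol per mouse and a cross for the dye-swapped pools. All arrays lie below 0 for the 15 probes that fell, mouse 4 stands apart for Serpina4-ps1 at -1.66, and for Serpina3c mouse 5 lies at -0.033.

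The Serpina1 genes are the mouse relatives of antitrypsin, known as the main inhibitor of neutrophil elastase in plasma, and lie as several copies on chromosome 12. Which proteases each mouse copy inhibits was not examined here. Of 8 tested probes of 5 genes, only 1 passed, a probe of Serpina1e. The start regions of 4 copies are shown because 1 of them, Serpina1e, holds the probe that fell, while the upstream sequences are close to each other; the difference between copies was not tested. Each run holds the 250 bases before the RefSeq transcript start in GRCm38.p6, 5′ to 3′, at chr12:103863620-103863869 (- strand) for Serpina1a, chr12:103904951-103905200 (- strand) for Serpina1c, chr12:103773634-103773883 (- strand) for Serpina1d and chr12:103956898-103957147 (- strand) for Serpina1e, and capitals mark the AP-1 motif TGACTCA (the reverse complement of TGAGTCA).
Serpina1a: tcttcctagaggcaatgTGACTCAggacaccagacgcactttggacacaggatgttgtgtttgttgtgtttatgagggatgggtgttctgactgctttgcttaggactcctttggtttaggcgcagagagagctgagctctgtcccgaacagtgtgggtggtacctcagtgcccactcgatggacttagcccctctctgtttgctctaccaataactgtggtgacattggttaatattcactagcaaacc
Serpina1c: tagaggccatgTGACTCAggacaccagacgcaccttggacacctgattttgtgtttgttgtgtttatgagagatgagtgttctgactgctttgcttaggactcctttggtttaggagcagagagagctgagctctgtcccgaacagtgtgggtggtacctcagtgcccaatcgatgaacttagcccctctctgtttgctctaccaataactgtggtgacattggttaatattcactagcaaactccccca
Serpina1d: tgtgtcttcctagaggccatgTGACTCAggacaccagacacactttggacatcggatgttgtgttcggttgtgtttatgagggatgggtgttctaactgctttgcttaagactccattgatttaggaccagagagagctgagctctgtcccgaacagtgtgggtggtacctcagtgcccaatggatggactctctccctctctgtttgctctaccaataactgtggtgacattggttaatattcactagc
Serpina1e: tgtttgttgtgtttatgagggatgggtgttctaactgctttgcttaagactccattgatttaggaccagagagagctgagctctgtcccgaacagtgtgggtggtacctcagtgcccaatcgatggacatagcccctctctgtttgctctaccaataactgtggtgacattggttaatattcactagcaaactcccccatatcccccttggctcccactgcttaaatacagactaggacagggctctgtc
The motif begins 233 bases before the start in Serpina1a, 239 in Serpina1c and 229 in Serpina1d. The Serpina1e window holds no match. Its annotated start lies further into the shared sequence, so that the window opens 57 bases into that of Serpina1a, 51 into that of Serpina1c and 62 into that of Serpina1d, after the stretch with the motif in each of them. Over the shared stretch, Serpina1e was identical to Serpina1a at 95.9% of positions, to Serpina1c at 95.2% and to Serpina1d at 226 of 238 positions. TGAGTCA or TGACTCA was present in windows (250 bases before to 50 after the start) of 5 of 48 serpin genes on the array that have one (10.4%) and of 5.95% of the 27025 genes counted in the RefSeq promoter table. Beside the Serpina1 copies, whose matches lie in a stretch they share, these were Serpinb7 and Serpinb8. Among the genes that fell, Serpina4-ps1, Serpina6, Serpina9, Serpina10 and Serping1 had no window and were not searched. No window of the other genes that fell held a match. A match is a description of the letters and not of a bound site.

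Serpina1e itself fell on 1 of its probes. That probe read -1.08, -0.80, -0.74, -0.30 and -0.57 in mice 1 to 5 and -1.43 in the pools, a fall of 2.08-fold (log2 -1.06, SE 0.13, adjusted p = 0.00170). On mouse arrays only its estimate was -0.68. The other Serpina1e probe, the brighter of the 2, read -0.19, -0.25, -0.16, 0.14, 0.20 and -0.65. Its estimate of -0.33 missed the threshold (SE 0.09, adjusted p = 0.0523). So the call for this gene rests on the dimmer probe of 2, with mice 4 and 5 above 0 on the other. With 1 probe per gene only the brighter probe was tested, and it did not pass (adjusted p = 0.055). The other probe passed as lower with slide as a random block over 5 separate mouse arrays (adjusted p = 0.0308), with those arrays and no block (adjusted p = 0.0306), without a filter (adjusted p = 0.0473), under robust variances with a trend on intensity (adjusted p = 0.0373) and without mouse 5 (adjusted p = 0.0370).

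The remaining copies but Serpina1f had a positive sign in the mice and a negative sign in the dye-swapped pools. The probe of Serpina1c read 0.62, 0.31, 0.26, 0.49 and 0.38 in mice 1 to 5, but -0.39 in the dye-swapped pools (estimate 0.028, adjusted p = 0.865). The Serpina1a probes read 0.72, 0.35, 0.29, 0.45, 0.36 and -0.33, and 0.021, 0.20, 0.085, 0.39, 0.093 and -0.61, and their estimates of 0.064 and -0.22 had opposite signs without passing (adjusted p = 0.695 and 0.116). Both Serpina1d probes were positive in all 5 mice (0.023 to 0.36) and negative in the pools (-0.55 and -0.41), with estimates of -0.16 and -0.11 (adjusted p = 0.199 and 0.346). Serpina1f lay between -0.13 and 0.11 on all arrays (adjusted p = 0.852).

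Antithrombin, encoded by Serpinc1 and the main inhibitor of thrombin, showed the same split. Its probe read 0.38, 0.36, 0.38, 0.54 and 0.43 in the mice and -0.72 in the pools, with an estimate of -0.15 that did not pass (SE 0.06, adjusted p = 0.184). On the mouse arrays alone the ratio was 0.43 (adjusted p = 0.00135), and there genotype and dye cannot be told apart. Across the family, the mouse mean and the dye-swapped array had opposite signs for 13 of 44 tested probes (29.5%), against 42.8% of all tested probes, and 5 of these 13 were Serpina1 probes.

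**Figure D3:**
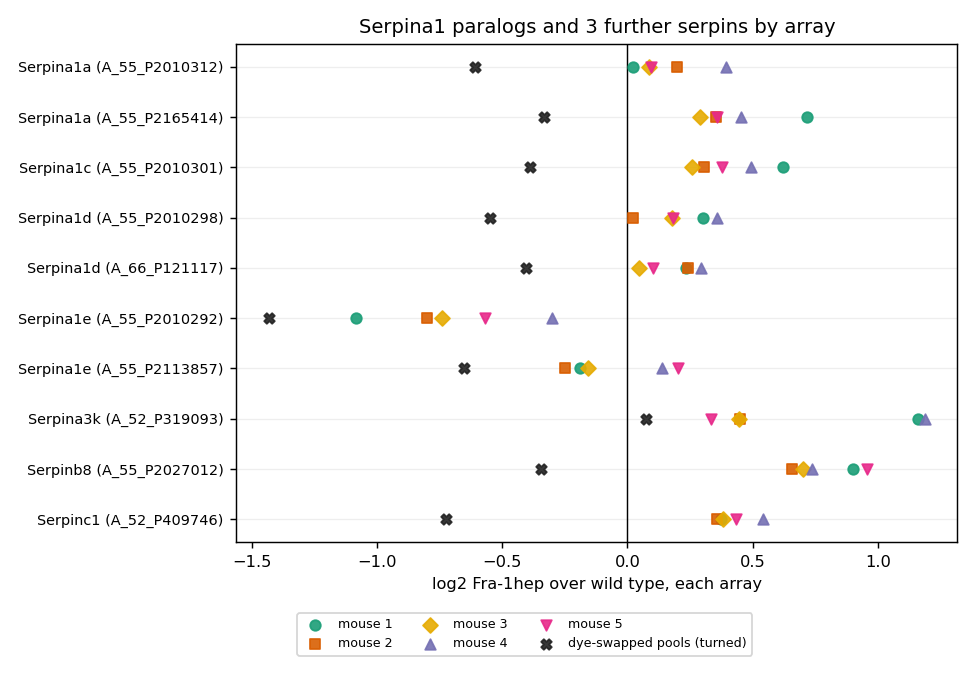
Log2 ratio of Fra-1hep over wild type on each array (x axis) for the Serpina1a to Serpina1e probes and for Serpina3k, Serpinb8 and Serpinc1, with a symbol per mouse and a cross for the dye-swapped pools, sign reversed to match. For Serpina1a, Serpina1c, Serpina1d, Serpinb8 and Serpinc1 the cross lies below 0 and all mice above it, while for the probe A_55_P2010292 of Serpina1e all 6 points lie below 0.

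Serpind1, heparin cofactor II, was below 0 on all 6 arrays (-0.028 to -0.36), but its estimate of -0.19 did not pass (SE 0.07, adjusted p = 0.125). Serpinf2, which encodes antiplasmin, the inhibitor of plasmin, lay between -0.051 and 0.27 (estimate 0.032, SE 0.07, adjusted p = 0.830).

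The Serpina3 genes, mouse relatives of antichymotrypsin, moved in both directions. Of 6 tested probes, each of another gene, 2 fell, 1 rose and 3 did not pass. Serpina3f read -1.23, -0.98, -1.29, -1.30 and -0.67 in mice 1 to 5 and -0.90 in the pools, which made it 1.99-fold lower (log2 -0.99, SE 0.11, adjusted p = 0.00137). Its estimate was -1.23 with offset 10 and -1.46 with processed signals. Serpina3n, an acute phase serpin that can block cathepsin G and granzyme B, read -0.95, -1.08, -0.91 and -0.81 in mice 2 to 5, -0.465 in the pools and -0.22 in mouse 1. It fell (estimate -0.60, SE 0.13, adjusted p = 0.0235), a call lost with median centring (adjusted p = 0.0513), offset 10 (adjusted p = 0.0526), with processed signals (adjusted p = 0.102) and with an intensity trend and robust variance (adjusted p = 0.0608).

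Serpina3c was the serpin that rose. It read 0.21, 0.28, 0.31 and 0.53 in mice 1 to 4, -0.033 in mouse 5 and 0.48 in the pools (estimate 0.37, SE 0.10, adjusted p = 0.0465). It sat at the threshold: without mouse 1 the adjusted p was 0.0709, without mouse 4 0.0507 and without mice 2 and 3 0.0944. With processed signals it was 0.153, with offset 10 0.0862 and on mouse arrays only 0.0682 (estimate there 0.25). Serpina3m lay close to it on every array, at 0.30, 0.27, 0.15, 0.60 and -0.0825 in the mice and 0.51 in the pools, and missed the threshold (estimate 0.38, SE 0.11, adjusted p = 0.0636). It passed as higher with slide as a random block over 5 separate mouse arrays (adjusted p = 0.0405), with those arrays and no block (adjusted p = 0.0398), with median centring (adjusted p = 0.0177), without a dye term (adjusted p = 0.0413) and without mouse 5 (adjusted p = 0.0229). Serpina3k, the kallikrein-binding protein, was positive throughout, at 1.16 and 1.19 in mice 1 and 4, 0.45, 0.44 and 0.33 in mice 2, 3 and 5 and 0.074 in the pools (estimate 0.43, SE 0.16, adjusted p = 0.146). It passed with median centring (adjusted p = 0.0394), without a dye term (adjusted p = 0.0165) and on mouse arrays only (adjusted p = 0.0068). Serpina3b stayed between -0.15 and 0.15 (adjusted p = 0.551). Serpina3a and Serpina3j were not well above background.

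Clade B serpins lack a classical signal peptide and guard cells against their own or stray proteases. Of 27 clade B genes on the array, 8 were tested and 19 were too dim, namely Serpinb1b, Serpinb1c, Serpinb2, Serpinb3a, Serpinb3b, Serpinb5, Serpinb6d, Serpinb6e, Serpinb7, Serpinb9b, Serpinb9c, Serpinb9d, Serpinb9e, Serpinb9f, Serpinb9g and Serpinb10 to Serpinb13. None of the 9 tested probes passed, with estimates from -0.31 to 0.24.

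Serpinb1a encodes an inhibitor of neutrophil elastase and cathepsin G. It read -0.19, 0.021, 0.11, 0.53 and -0.22 in mice 1 to 5 and 0.0034 in the pools (estimate 0.025, SE 0.13, adjusted p = 0.934). Markers of neutrophils, in which this serpin is abundant, rose in 8 of 10 cases and fell in 1 (Lcn2), with summed signals of 36500 to 92000 in Fra-1hep and 26610 to 38970 in wild type. The median ratio of that marker list was lowest in mice 1 and 5 (1.02 and 0.98) and highest in mouse 4 (3.06), which were also the mice with the lowest and the highest Serpinb1a ratio. This order was not particular to Serpinb1a, as Serpina3c too was lowest in mice 1 and 5 and highest in mouse 4. The pools had a marker median of 2.58 and read 0.0034 for Serpinb1a. The part of neutrophils in these values was not tested. Serpinb9, the inhibitor of granzyme B, read -0.094 to 0.38 (adjusted p = 0.636).

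Serpinb6a, a broad inhibitor found in many cells, read -0.44, -0.57 and -0.44 in mice 1 to 3, -0.14 in mouse 4, 0.002 in mouse 5 and -0.35 in the pools (estimate -0.31, SE 0.10, adjusted p = 0.0851). It passed as lower without mouse 5 (adjusted p = 0.0413) and without a dye term (adjusted p = 0.0287). Among the mice, the Serpinb6c probes were also lowest in mice 1 to 3, at -0.24 to -0.45, with mice 4 and 5 at -0.070 to 0.052. The pools read -0.38 and -0.28 (adjusted p = 0.123 and 0.0977). Serpinb6a and Serpinb6c are close paralogs. Serpinb6b, Serpinb3c and Serpinb3d lay between -0.15 and 0.34 on every array.

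Serpinb8, an intracellular inhibitor of furin-like proteases, was the clade B member with the largest ratio on the mouse arrays, at 0.90, 0.66, 0.70, 0.74 and 0.96. The dye-swapped pools read -0.35, and the estimate of 0.24 did not pass (SE 0.07, adjusted p = 0.0759). It passed with median centring (0.39, adjusted p = 0.0117) and on the mouse arrays alone (0.82, adjusted p = 0.000132), where dye and genotype cannot be told apart. Its upstream region is shown because it holds the motif of the AP-1 family, in capitals as TGAGTCA, 23 bases before the start, at chr1:107589756-107590005 (+ strand) in GRCm38.p6. A further match begins 14 bases after the start, outside the printed run.
Serpinb8: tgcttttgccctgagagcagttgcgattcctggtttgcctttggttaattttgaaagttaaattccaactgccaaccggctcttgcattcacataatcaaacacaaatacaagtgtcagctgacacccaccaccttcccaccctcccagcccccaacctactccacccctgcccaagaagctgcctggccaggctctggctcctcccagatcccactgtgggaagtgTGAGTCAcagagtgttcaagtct

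In clade E, Serpine2, or protease nexin-1, was below 0 on all 6 arrays, at -0.47, -0.69, -0.62, -0.13, -0.42 and -0.26, and missed the threshold (estimate -0.34, SE 0.09, adjusted p = 0.0529). It passed as lower with slide as a random block over 5 separate mouse arrays (adjusted p = 0.0324) and in 7 further settings: those arrays without the block, no filter, no dye term, mouse arrays only, an intensity trend with robust variance, and without mouse 2 or mouse 4 (adjusted p from 0.0061 to 0.04998).

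**Figure D4:**
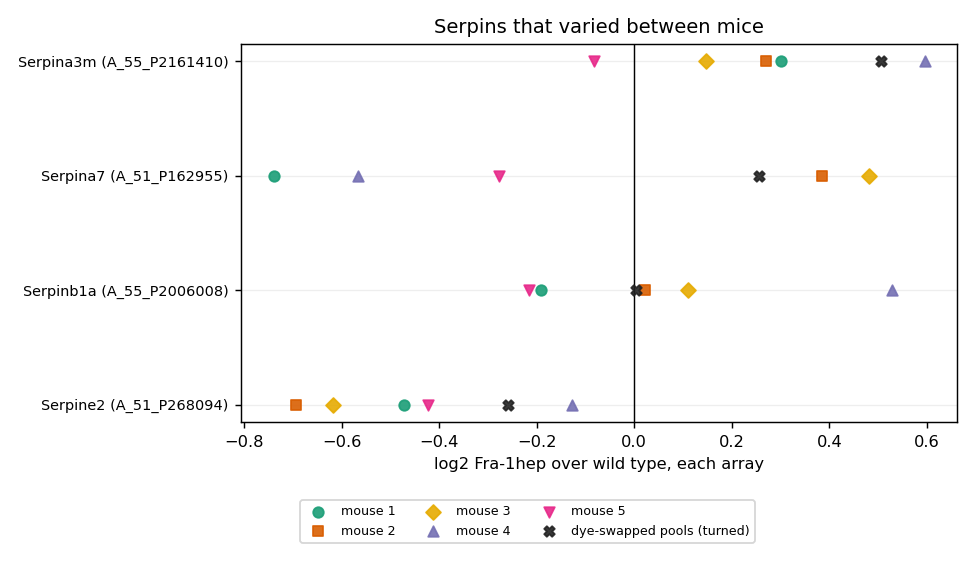
Log2 ratio of Fra-1hep over wild type on each array (x axis) for Serpina3m, Serpina7, Serpinb1a and Serpine2, with a symbol per mouse and a cross for the dye-swapped pools, sign reversed to match. For Serpina7, mice 2 and 3 and the pools lie above 0 and mice 1, 4 and 5 below it, while all 6 points of Serpine2 lie below 0.

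Clades H and I had a single tested probe each. Serpinh1, also called Hsp47, is the collagen chaperone of the endoplasmic reticulum and read -0.31 to 0.14 (estimate 0.012, SE 0.07, adjusted p = 0.944). Serpini1, neuroserpin, was above background on 4 arrays in Fra-1hep and 0 in wild type, and its estimate of 0.12 did not pass (adjusted p = 0.501), while Serpini2 was not tested.

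The proteases that serpins act on and the inhibitors of other families were examined in lists, with each gene represented by its brightest probe and p-values adjusted over all 22846 genes and unnamed transcripts so represented. Of these, 5.97% rose and 6.51% fell. Of 10 coagulation and contact proteases, 3 fell and 0 rose: F11 (log2 -0.84, SE 0.10, adjusted p = 0.00215), F7 (-0.33, adjusted p = 0.0130) and the hepatocyte growth factor activator Hgfac (-0.38, adjusted p = 0.0257). Thrombin itself (F2, -0.13) and the kallikrein gene Klkb1 (-0.11) did not pass. The median of the 10 was -0.11, against 0.009 over all 22846. The direction of this list turned with median centring, under which 2 rose and 1 fell; with processed signals 1 fell. In the plasminogen system 5 of 7 genes were tested and 0 passed, with Plg at -0.049 and the activators Plat and Plau not tested. Among 9 complement proteases 3 fell and 0 rose, with a median of -0.19, while with median centring 1 rose and 1 fell. C1s1, which C1 inhibitor blocks, fell (-0.37, SE 0.06, adjusted p = 0.00904), as did Cfb (-0.30, adjusted p = 0.0319). Cfd stayed at background in Fra-1hep (0 arrays above it) and was at least 8.78-fold lower there (adjusted p = 1.29e-06), a bound that sets the wild-type mean against the higher, per array, of its own signal and the lowest signal above background.

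Of 4 tested neutrophil serine proteases 2 rose and 0 fell, Ctsg (2.17, SE 0.37, adjusted p = 0.00912) and Elane (0.50, SE 0.12, adjusted p = 0.0369), with Prtn3 at -0.095 (adjusted p = 0.798) and Prss57 at 0.012 (adjusted p = 0.954). With processed signals 1 rose. Ctsg read 1.56, 2.51, 2.43, 2.75 and 0.46 in mice 1 to 5 and 2.54 in the pools. Elane is also counted above among the neutrophil markers, and the part of neutrophils in these rises was not tested. Of 9 tested membrane and digestive serine proteases 3 rose and 0 fell, namely the elastase gene Cela1 (3.52, SE 0.09, adjusted p = 1.82e-06), St14, which encodes matriptase (2.97, SE 0.09, adjusted p = 4.92e-06), and Tmprss2 (1.72, SE 0.19, adjusted p = 0.00169). Spint1, the Kunitz-type inhibitor of matriptase, rose too (0.47, SE 0.07, adjusted p = 0.00758). Of 5 cholangiocyte markers 2 rose and 0 fell, with summed signals of 1418 to 1815 in Fra-1hep and 971 to 1141 in wild type. Of 5 exocrine pancreas markers with a probe, 2 were tested and 0 passed. The part of these cells in the rises of Cela1, St14, Tmprss2 and Spint1 was not tested. Of 10 cathepsins, granzymes and caspases, 5 fell and 1 rose: Casp1 (-0.56), Gzmb (-0.36), Gzma (-1.50), Ctss (-0.54) and Casp8 (-0.30) were lower, with adjusted p from 0.0043 to 0.0331, and Ctsl was higher (0.29, adjusted p = 0.0435). Ctsl read 0.063, 0.31, 0.31, 0.13 and -0.032 in the mice and 0.46 in the pools. With processed signals 2 of this list fell and 0 rose; 0 rose also with offset 10, without a dye term, on mouse arrays only and without mouse 1, mouse 4 or mice 2 and 3. The medians of these lists were 0.25 for neutrophil proteases, 0.13 for membrane and digestive proteases and -0.33 for cathepsins and granzymes. Macrophages are rich in cathepsin S, and of 10 macrophage markers 9 fell and 0 rose, with summed signals of 38290 to 72050 in Fra-1hep and 86610 to 108300 in wild type. Of 8 T and NK cell markers 6 fell and 0 rose, and the granzyme genes are among them, with summed signals of 2175 to 3143 in Fra-1hep and 2656 to 3578 in wild type. The part of either cell type in these results was not tested.

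Of the plasma protease inhibitors of other families, 17 were tested, and 3 fell and 2 rose, with a median of 0.018. The difference between the families was not tested. Pzp, a macroglobulin (-0.44, adjusted p = 0.0136), Itih4 (-0.44, adjusted p = 0.0178) and the cysteine protease inhibitor cystatin C, Cst3 (-0.29, adjusted p = 0.0173), fell, while Spint1 and Hrg (0.68, adjusted p = 0.0185) rose. For Itih4, 4 of 5 mice read above 0 (0.014 to 0.19) and mouse 4 -0.32, so that the dye-swapped pools at -0.84 carried the call. With median centring 4 of these inhibitors rose and 0 fell, and with processed signals 1 rose and 0 fell.

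**Figure D5:**
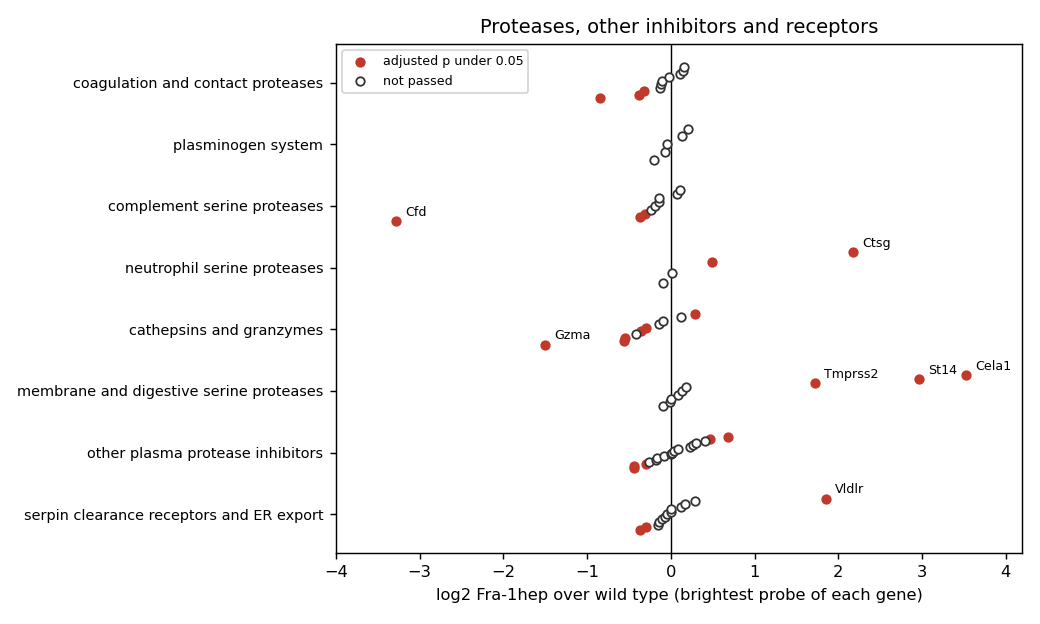
Genotype estimate (x axis, log2 Fra-1hep over wild type) of the brightest probe of each tested gene in 8 lists of proteases, other inhibitors and receptors, with filled points at an adjusted p under 0.05 and names for those beyond 1. Cela1, St14, Tmprss2, Ctsg and Vldlr lie to the right and Gzma to the left; Cfd is drawn at its measured -3.28, where only a bound of at least 8.78-fold holds.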

How the data were processed

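Per the labels, RNA with an integrity score above 7.8 was used and 100 ng was labelled. The authors extracted the arrays with Agilent Feature Extraction, whose version is 10.7 in the submitters' processing notes; the file headers name release 10.7.3.1. Scanner output as deposited gives median spot and background intensity, not normalized, background-subtracted and dye-normalized processed intensity, and its log10 ratio of Cy5 over Cy3. The log2 values of the series table that the authors deposited are ratios of processed signal with the sign of the swapped array reversed, as found by comparison with the scanner values (median absolute difference at most 1.73e-07). Its columns are not centred, with medians from -0.18 to 0.062.

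Median signals were corrected with normexp (offset 50, which pulls ratios of dim probes towards 0) and normalized by loess with limma (3.58.1, in R 4.3.3), with control and outlier spots at weight 0, and unmarked replicate spots were averaged. No serpin array value was dropped. Probes were named through RefSeq accessions of the GRCm38.p6 gene list; 26056 of 55681 had 1 symbol. The arrays were designed on an earlier build, per the file headers, so probes are given no position. Probes well above background in Fra-1hep on 3 or more of the 5 mouse arrays, or in wild type on 3 or more of the 6 arrays, were tested (30110, of which 5 gave no estimate). The limma fit had a genotype and a dye term (3 residual and 5.15 prior degrees of freedom). The fit was checked on simulated data. In a first version, which drew noise from the fitted variances of the probes, false calls exceeded the nominal share. The simulation was then redrawn from the variances limma assumes, so it cannot show how the fit does where that assumption fails. Adjusted p-values near the threshold are therefore less secure than they read.

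The members and the lists were chosen with earlier results of these data known. The naming rule asked for values on every array for the brightest probe of genes that passed with a log2 of 1 or more and for genes whose probes disagreed in sign; array values of the other probes that passed and of the members that came close, split by dye or varied between mice were added after their values were seen. Protein sequences were not used here. Of the members and markers, 1 of each is counted in totals but not reported here.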

Additional observations from a re-analysis of the deposited data

Results flagged for a closer look

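Among 43 tested serpin probes, the 4 counted samples held a value set apart from the rest by Dixon's criterion in 2 cases; chance alone flags about 1 in 20 probes. For the Serpina6 probe A_55_P2178036, mouse 5 lay at -0.71 and the others between -1.44 and -1.39, a gap of 0.93 of the whole range. For Serpina9, the averaged mice 2 and 3 lay at -0.64 and the others between -1.01 and -0.98 (0.904 of the range).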

How the results depend on the processing

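The count of 15 falling serpin probes lay between 10 and 18 under all alternatives, and the 11 in clade A also stayed within 1.5 times. The 10 was reached with processed signals, with the series table and with 1 probe per gene, where 36 serpin probes were tested. Of the 16 probes called, those of Serpina1e, Serpina4-ps1, Serpina6, Serpina9, Serpina10, Serpina11 and Serpina3f and 1 of 2 for Serping1 passed under every alternative in which they were tested, and 0 of the 16 reversed. With 1 probe per gene the called Serpina1e probe was not tested, and the other probe of that gene did not pass. Of the probes that did not pass, up to 6 per alternative changed sign without passing.

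The count of rising serpin probes was 0 with processed signals, the series table or offset 10, 2 with 5 separate mouse arrays or with slide as a random block, 4 with median centring or no dye term and 7 on mouse arrays only. It ranged from 0 to 2 when each mouse was left out in turn. On mouse arrays only, 3 estimates that had not passed reversed and passed: Serpinc1 (0.43) and the Serpina1d probes (0.23 and 0.19). Serpina3c did not pass there.

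The serpin median was -0.0067 with median centring, -0.044 without a filter, -0.22 with the strict filter, -0.022 with 1 probe per gene, -0.10 without a dye term and -0.064 on mouse arrays only. Over all probes, 1663 rose and 1820 fell. These counts were 2933 and 1016 with median centring, 812 and 805 with processed signals, 817 and 807 with the series table, 3030 and 2868 without a dye term, and 4246 and 3339 on mouse arrays only. Over the protease and inhibitor lists together, 25 genes changed, against 11 with processed signals or the series table and 40 on mouse arrays only; of 324 recounts of single lists by direction, 48 moved by over 1.5 times. The alternative without mice 2 and 3, and the clade A count, were chosen after seeing the data.

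No paired analysis was possible because the mice carry numbers in 1 group only. A single dye-swapped array carries as much weight as all mice together, and its own error is not estimated.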

Other observations

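Receptors that clear serpin complexes and proteins that export secretory proteins from the endoplasmic reticulum were also read. Of 13 tested genes, 1 rose and 2 fell, where 5.97% of all 22846 genes and unnamed transcripts rose and 6.51% fell. With median centring 2 of the 13 rose and 0 fell, and with processed signals 1 rose and 0 fell. Vldlr, a receptor of the LDL family that takes up complexes of serpins with proteases, rose (log2 1.86, SE 0.23, adjusted p = 0.00254). The asialoglycoprotein receptor subunit gene Asgr2 (-0.36, adjusted p = 0.00971) and the chaperone gene Calr (-0.30, adjusted p = 0.0453) fell. Lrp1, the main hepatic receptor of serpin complexes (-0.15, adjusted p = 0.216), and Lman1, part of the cargo receptor that carries antitrypsin out of the endoplasmic reticulum (-0.051, adjusted p = 0.721), did not pass. Angiotensinogen, Agt, has the serpin fold under another symbol and lay at -0.18 without passing (adjusted p = 0.155).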
